A study of Homo sapiens with 6 samples.

Results

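The genes that make, store, take up and break down catecholamines were followed in SH-SY5Y cells, a neuroblastoma line of the sympathetic nervous system, after knockdown of the RNA-binding protein PSF. Members were taken by gene symbol from a fixed list of 9 genes (TH, DDC, DBH, GCH1, SLC18A1, SLC18A2, SLC6A2, MAOA and MAOB), and all 9 were found among the 21301 genes of the count table and passed the filter on low counts. The control group (siControl, 3 libraries) received a control siRNA and the knockdown group (siPSF, 3 libraries) a siRNA against PSF, each at 10 nM for 72 h, with no other treatment named. All 6 libraries come from 1 cell line and 1 siRNA against PSF, and the study calls the 3 libraries of a group biological triplicates. Values are given as CPM, that is, counts divided by the library total in the usual CPM unit, after TMM normalization. Since the RNA is bulk RNA, fewer cells that express a gene and less RNA per cell cannot be told apart.

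Catecholamines are made from tyrosine. TH converts tyrosine to L-DOPA in the rate-limiting step, with tetrahydrobiopterin as cofactor, and GCH1 opens the synthesis of that cofactor. DDC removes the carboxyl group of L-DOPA to give dopamine, SLC18A1 and SLC18A2 (the vesicular monoamine transporters VMAT1 and VMAT2) load dopamine into granules, and DBH turns it into noradrenaline inside the granule. SLC6A2 is the noradrenaline transporter of the cell surface, and the mitochondrial enzymes MAOA and MAOB oxidize amines that are left in the cytosol. Sympathetic neurons and chromaffin cells of the adrenal medulla, which arise from the same neural crest lineage as neuroblastoma, are known for this pathway.

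To set the regulatory sequence of DBH, a member that differed between the groups, beside that of SLC18A2, a member that was nearly silent in both, the 250 bases before their start sites are shown (RefSeq, GRCh38.p14, plus strand). They lie at chr9:133636113-133636362 and chr10:117240864-117241113. Capitals mark matches, on either strand, to the cAMP response element TGACGTCA, its core TGACG, the AP-1 site TGANTCA, the homeodomain core TAAT and the TATA box TATAAA.
DBH: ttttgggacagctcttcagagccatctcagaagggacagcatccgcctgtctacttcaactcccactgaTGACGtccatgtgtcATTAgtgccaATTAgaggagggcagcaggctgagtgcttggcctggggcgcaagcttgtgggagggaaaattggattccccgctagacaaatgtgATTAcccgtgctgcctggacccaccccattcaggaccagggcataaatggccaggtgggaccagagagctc
SLC18A2: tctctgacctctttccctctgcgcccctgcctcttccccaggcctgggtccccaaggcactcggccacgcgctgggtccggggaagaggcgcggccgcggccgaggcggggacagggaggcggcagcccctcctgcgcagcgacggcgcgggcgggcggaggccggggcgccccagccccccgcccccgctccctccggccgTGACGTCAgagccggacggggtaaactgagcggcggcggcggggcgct
The DBH window held TGACG at 181 to 177 bases before the start and 3 homeodomain cores, at 166 to 163, 156 to 153 and 71 to 68 bases before it. It also held 3 E-boxes (CANNTG) and 1 AP-2 site (GCCTGGGGC, a match to GCCNNNGGC), which are not in capitals. The SLC18A2 window held 1 full cAMP response element at 48 to 41 bases before the start, which contains the core on both strands, and no homeodomain core. Of 35116 windows of this length in RefSeq, 1.65% held the full element, 21.2% its core, 6.57% an AP-1 site, 47.4% a homeodomain core, 10.7% a TATA box, 61.8% an E-box, 45.6% a GATA core (GATA) and 19.8% an AP-2 site. Windows were read for 5 of the 9 members, DBH, SLC18A2, DDC, MAOA and MAOB. No entry was found for TH, GCH1 and SLC6A2, and the window of SLC18A1 was not analysed here. MAOA had 4 GATA cores and MAOB had 1, and DDC had homeodomain cores before both of its start sites. The MAOA window (chrX:43656049-43656298) lies inside the gene span given for MAOA below, so it is not the sequence before the start of that span. These matches are descriptions of letters and not of bound factors.

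SFPQ, the gene of PSF, was at 372, 356 and 401 CPM in the siControl libraries and at 209, 193 and 165 CPM in the siPSF libraries (-0.99 ± 0.10 on the log2 scale, fitted value ± standard error; edgeR's adjusted p = 9.5e-05). The libraries held between 101540520 and 132420931 counts each. Of the 19694 genes tested, 1628 were called lower and 1310 were called higher (adjusted p under 0.05), so that 55.4% of calls were lower. On the deposited FPKM values this balance moved, with 70.8% of limma's calls lower, and to 3409 lower against 463 higher after FPKM was rescaled to the same sum per library. On that last scale the median of all genes was -0.16, against 0.01 on the counts.

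After siPSF treatment, TH, DBH and SLC6A2 fell, and no member rose past the test. These are 3 of 9 members called lower, where edgeR called 8.27% of all genes tested lower. For higher calls the count was 0 of 9, where edgeR called 6.65% of all genes higher. At an unadjusted p under 0.05 the counts were 4 lower and 0 higher, against 15.4% and 14.4% of all genes. DESeq2's Wald test called 3 members lower and 0 higher, against 10.4% and 8.02% of all genes. The libraries of the groups did not overlap in the same 3 genes, all lower, where 17.8% of all genes showed such a separation downwards and 16.7% upwards. The median log2 fold change over the members was -0.17 and over all genes tested 0.01.

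**Figure D1:**
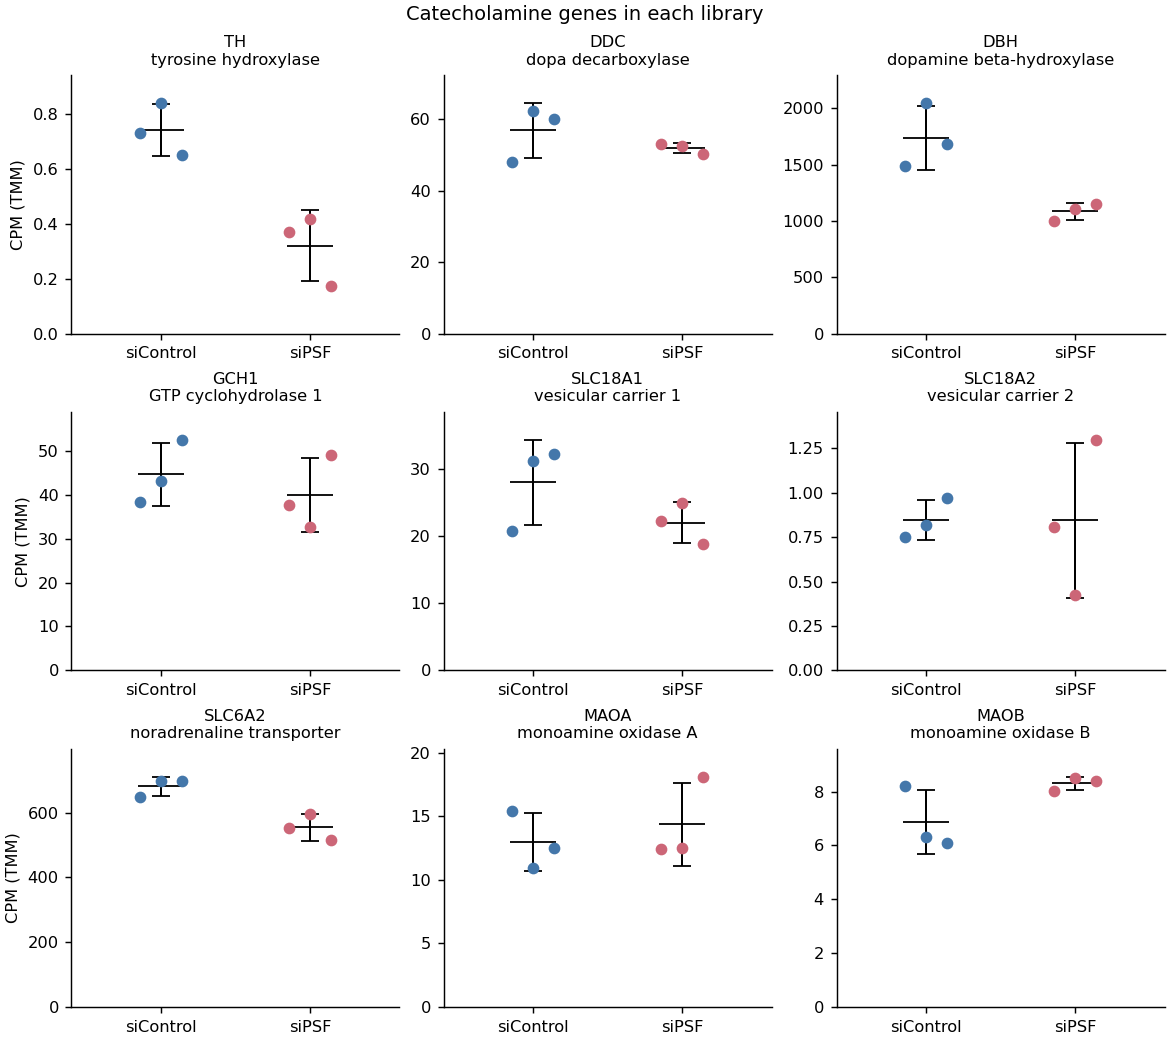
CPM of the 9 catecholamine genes in each of the 3 siControl and 3 siPSF libraries (points), with the mean and SD of each group (black). Each panel has its own linear axis from 0. The siPSF libraries lie below every siControl library in TH, DBH and SLC6A2, and the groups overlap in the other 6 genes.

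TH (gene ID 7054; GRCh38 chromosome 11, 2163929 to 2171815) was read at 0.732, 0.839 and 0.651 CPM in siControl and at 0.370, 0.417 and 0.172 CPM in siPSF. The siPSF libraries were all below the siControl libraries, and siPSF replicate 3 was the lowest. The siControl mean was 0.741 ± 0.0945 CPM and the siPSF mean 0.320 ± 0.130 CPM (SD, n = 3 each). The fitted change was -1.20 ± 0.32 (log2, standard error), or 43.5% of the siControl level (edgeR's adjusted p = 0.025). These values rest on few reads, 89, 112 and 82 in siControl and 44, 44 and 17 in siPSF. The call was lost without siControl replicate 2 (adjusted p = 0.10) and without siControl replicate 3 (adjusted p = 0.061), and over the 6 fits that each left out a library the adjusted p ran from 0.020 to 0.10 and the log2 fold change from -1.43 to -0.91.

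DBH (gene ID 1621; chromosome 9, 133636363 to 133659329) was at 1485, 2046 and 1682 CPM in siControl and at 999.95, 1103 and 1151 CPM in siPSF. Its highest siPSF library was below its lowest siControl library, although the siControl libraries themselves spread widely. The siControl mean was 1738 ± 285 CPM and the siPSF mean 1085 ± 77.3 CPM (SD, n = 3 each). The fitted change was -0.68 ± 0.12 (log2, standard error), or 62.4% of the siControl level (edgeR's adjusted p = 0.0024). The call held in all 13 other fits, with log2 fold changes from -0.86 to -0.56. The -0.86 came from rescaled FPKM, where DBH was at -0.70 relative to the all-gene median. DBH overlaps 2822 bases of the long noncoding gene DBH-AS1, whose counts (371 to 503 per library) were far below those of DBH (113509 to 273004). Whether strand was used in the counting was not stated.

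DDC, the decarboxylase between TH and DBH (gene ID 1644; chromosome 7, 50458442 to 50565405), was at 48.1, 62.3 and 60.1 CPM in siControl and at 53.1, 52.4 and 50.2 CPM in siPSF. The siPSF libraries lay close together, inside the range of the siControl libraries. Its log2 fold change was -0.13 (95% interval -0.36 to 0.10, edgeR's adjusted p = 0.44). That interval does not reach the fitted change of DBH or of TH, but it holds that of SLC6A2 (-0.30). The difference between DDC and these genes was not tested itself. DDC overlaps the long noncoding gene DDC-AS1, which was not analysed here.

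GCH1, the entry enzyme of cofactor synthesis (gene ID 2643; chromosome 14, 54842017 to 54902826), was at 38.4, 43.2 and 52.5 CPM in siControl and at 37.7, 32.7 and 49.2 CPM in siPSF. The groups overlapped, and the highest siPSF library was above 2 of the siControl libraries. GCH1 had a log2 fold change of -0.17 (95% interval -0.49 to 0.16, edgeR's adjusted p = 0.50). It was -0.34 without siPSF replicate 3 (edgeR's adjusted p = 0.076), -0.04 without siControl replicate 3 or siPSF replicate 2, and -0.37 to -0.48 with limma on the FPKM scales, and was called in none of these. The -0.48 came from rescaled FPKM, where GCH1 was at -0.31 relative to the all-gene median.

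Neither carrier of the granule was called. SLC18A1 (VMAT1, gene ID 6570, chromosome 8, 20144855 to 20183136) was at 20.7, 31.1 and 32.1 CPM in siControl. In siPSF it was at 22.1, 24.9 and 18.8 CPM. Of its siControl libraries, replicate 1 was low and lay within the siPSF range. Its log2 fold change was -0.35 (95% interval -0.69 to -0.01, edgeR's adjusted p = 0.16). Without siControl replicate 1 it was -0.53 and SLC18A1 was called (edgeR's adjusted p = 0.018), while over the 6 fits that each left out a library the adjusted p reached 0.42.

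SLC18A2 (VMAT2, gene ID 6571, chromosome 10, 117241114 to 117279430) was at 0.748, 0.817 and 0.969 CPM in siControl. In siPSF it was at 0.808, 0.426 and 1.30 CPM. The siPSF libraries spread to both sides of the siControl libraries, and the log2 fold change was -0.00 with an interval from -0.73 to 0.72 (edgeR's adjusted p = 0.995). Its counts were 45 to 128 per library, and it overlaps 2157 bases of the protein-coding gene PDZD8, which had 2251 to 4233 counts. The labels name a stranded library kit and the methods another kit of the same maker, and whether strand was used in the counting was not stated, so reads of the shared stretch may belong to either gene.

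SLC6A2, the noradrenaline transporter (gene ID 6530; chromosome 16, 55655988 to 55706192), was at 648, 699 and 699 CPM in siControl and at 551, 596 and 516 CPM in siPSF. All siPSF libraries were below all siControl libraries. The siControl mean was 682 ± 29.5 CPM and the siPSF mean 554 ± 40.4 CPM (SD, n = 3 each). The fitted change was -0.30 ± 0.09 (log2, standard error), or 81.3% of the siControl level (edgeR's adjusted p = 0.038). The call was lost without siControl replicate 2 (adjusted p = 0.11), siControl replicate 3 (adjusted p = 0.068), siPSF replicate 1 (adjusted p = 0.12) or siPSF replicate 3 (adjusted p = 0.095), and with no filter on low counts (adjusted p = 0.055). Over all 13 other fits the log2 fold change stayed between -0.48 and -0.25. The -0.48 came from rescaled FPKM, where SLC6A2 was at -0.32 relative to the all-gene median.

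The oxidases were the members with positive log2 fold changes. MAOA (gene ID 4128; chromosome X, 43655006 to 43746817), which prefers serotonin and noradrenaline, was at 15.4, 10.9 and 12.5 CPM in siControl and at 12.5, 12.5 and 18.1 CPM in siPSF. Of the siPSF libraries, replicate 3 stood alone at the top, and the other two lay inside the siControl range. For MAOA the log2 fold change was 0.15 (95% interval -0.21 to 0.51, edgeR's adjusted p = 0.60), and it was -0.05 without siPSF replicate 3 and also -0.05 with limma on rescaled FPKM, with MAOA 0.11 above the all-gene median.

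MAOB (gene ID 4129; chromosome X, 43766610 to 43882450), the neighbour of MAOA on the opposite strand, was at 8.22, 6.30 and 6.07 CPM in siControl and at 8.04, 8.50 and 8.41 CPM in siPSF. The siPSF libraries were above siControl replicates 2 and 3 but not all above replicate 1. For MAOB the log2 fold change was 0.28 (95% interval -0.02 to 0.57, edgeR's adjusted p = 0.20). On rescaled FPKM limma gave 0.08, with MAOB 0.24 above the all-gene median.

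Within siControl, replicate 1 had the lowest of the 3 values in 6 members (DDC, DBH, GCH1, SLC18A1, SLC18A2 and SLC6A2) and the highest in 2 (MAOA and MAOB). Its part in the results can be read from the fits without it, in which DBH, TH and SLC6A2 were called with log2 fold changes of -0.78, -1.21 and -0.34. SLC18A1 was also called there, at -0.53, while DDC was at -0.24 and MAOB at 0.43 (edgeR's adjusted p = 0.14 and 0.061).

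**Figure D2:**
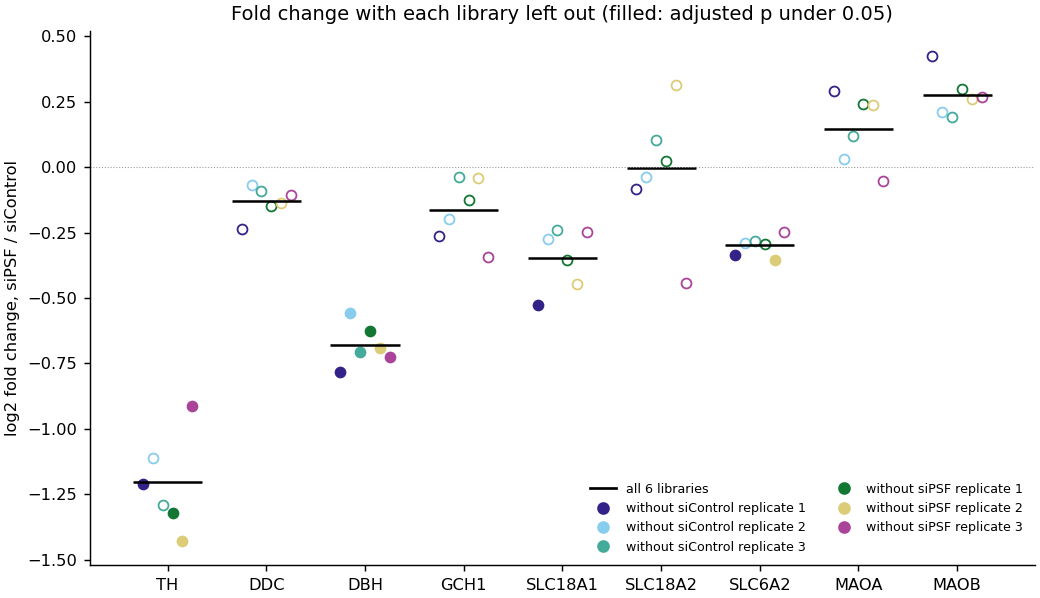
The log2 fold change (siPSF over siControl) of the 9 genes from edgeR with all 6 libraries (black lines) and with each library left out (circles, filled where the adjusted p was under 0.05). DBH is filled in all 6 fits, TH in 4, SLC6A2 in 2 and SLC18A1 in 1, and SLC18A2 and MAOA have values on both sides of 0.

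To compare levels between genes, the deposited FPKM values, which are per transcript length, were used. In siControl the order from the top was DBH, SLC6A2, DDC, GCH1, SLC18A1, MAOA, MAOB, SLC18A2 and TH by the median, which was 587, 112, 29.5, 14.9, 10.4, 2.84, 2.26, 0.196 and 0.187 FPKM. DBH ranked 85 of the 21301 genes by its siControl mean, and TH ranked 16668. By that mean SLC18A2 ranked 16799, below TH, the reverse of their order by the median. The ranges of neighbours did not overlap from DBH down to MAOA. MAOA (2.33 to 3.28 FPKM) and MAOB (2.24 to 2.94 FPKM) overlapped, and so did SLC18A2 (0.179 to 0.242 FPKM) and TH (0.157 to 0.315 FPKM). The mRNA of the last enzyme and of the transporter was thus abundant, and that of the rate-limiting enzyme was scarce.

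In the siPSF libraries, MAOB (2.79 to 2.90 FPKM) lay inside the range of MAOA (2.43 to 3.84 FPKM), and its median of 2.86 FPKM was above the MAOA median of 2.58 FPKM. TH (0.0358 to 0.0874 FPKM) was below SLC18A2 (0.0973 to 0.295 FPKM) in every library. The rank of DBH was 152 and that of TH 18956. FPKM per count was not steady for TH: it varied 1.97-fold between libraries, against 1.11-fold or less in each of the other 8 genes. The ratio of mean FPKM of TH, 30.8%, is therefore less secure than the value from counts. For the same reason the order of TH and SLC18A2 by FPKM is not secure in either group.

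**Figure D3:**
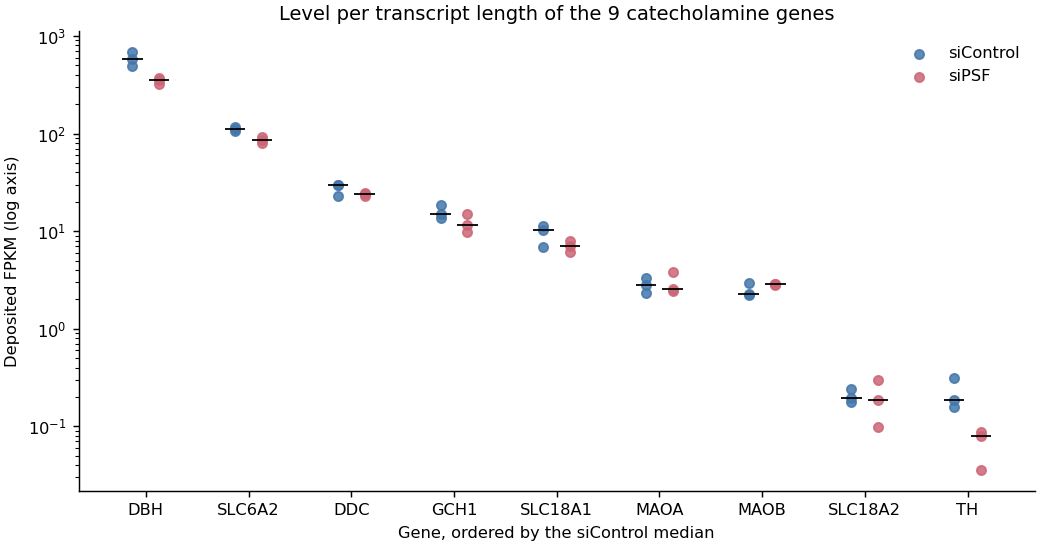
Deposited FPKM of the 9 genes on a log axis, ordered by the siControl median, with each library as a point and the median of each group as a line. DBH lies at 498 to 684 FPKM in siControl and at 325 to 368 FPKM in siPSF, and TH and SLC18A2 lie below 0.4 FPKM in all libraries.

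The members differ widely in gene length, and in these libraries the fold change moved with length. Among the 3058 protein-coding genes under 10 kb, 2.98% were called lower and the median log2 fold change was 0.08, whereas of the 1637 genes of 100 to 200 kb 16.6% were called lower with a median of -0.11. TH is 7.89 kb long and DBH 23.0 kb, and both were far below the medians of their length classes, which were 0.08 and 0.07. In their classes 0.752% of genes had a lower value than TH and 1.87% a lower value than DBH. The classes hold genes of all levels tested. The TH value rests on 17 to 112 reads per library, with a standard error of 0.32, whereas DBH had 113509 to 273004. SLC6A2, at 50.2 kb, had 14.4% of its class below it. The longest members, DDC (107 kb) and MAOB (116 kb), had 47.6% and 92.1% of genes of their class below them.

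**Figure D4:**
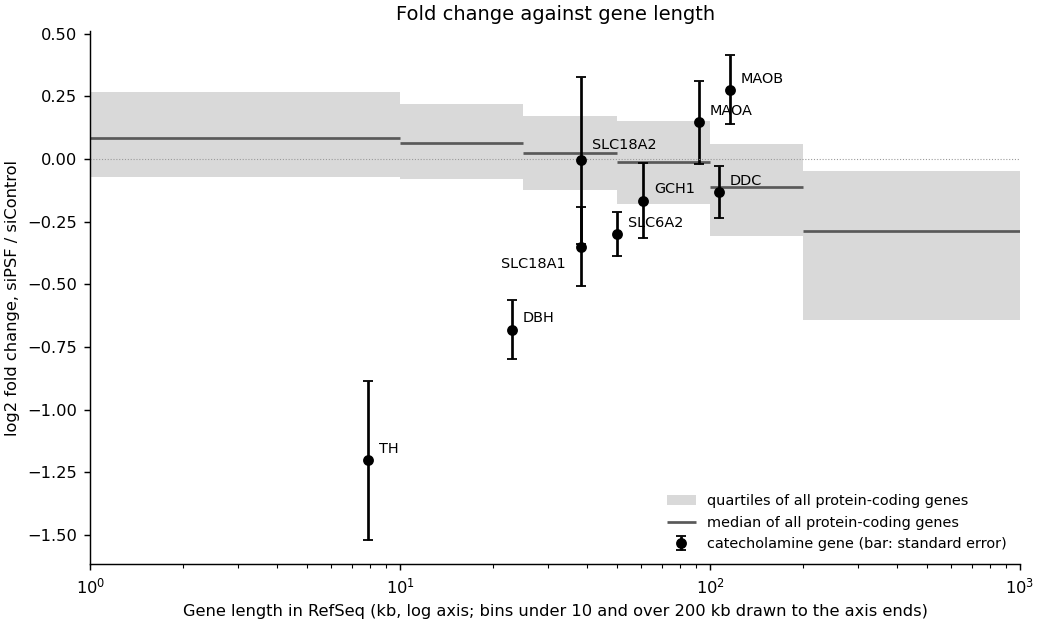
The log2 fold change of each of the 9 genes (points, bars are standard errors) against gene length on a log axis, over the median (lines) and quartiles (grey) of all protein-coding genes tested in 6 length classes. The medians go down from 0.08 under 10 kb to -0.29 over 200 kb, while TH and DBH, the shortest members, have the lowest values of the 9.

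Around the pathway, 86 further genes were listed in groups, of which 64 were tested, and 6 were called lower and 2 higher by edgeR. Of all genes tested, edgeR called 8.27% lower and 6.65% higher. The counts of the single lists below are to be read beside the same shares. The tetrahydrobiopterin enzymes had 1 of 6 genes lower and 0 higher, with a median log2 fold change of -0.14. That gene was PCBD2, a relative of the dehydratase PCBD1 that recycles the cofactor, which fell from 29.3 ± 1.15 to 19.0 ± 3.50 CPM (SD, n = 3 each; log2 fold change -0.63, edgeR's adjusted p = 0.0069) and was called in all 13 other fits. PTS, SPR, QDPR and PCBD1 were not called, with log2 fold changes from -0.19 to 0.11.

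Of 9 other enzymes of catecholamine handling, 1 was called lower and 1 higher, with a median of 0.07. ALDH2, the mitochondrial aldehyde dehydrogenase, which clears the aldehydes that the oxidases form, fell from 138 ± 7.34 to 109 ± 9.14 CPM (SD, n = 3 each; log2 fold change -0.34, edgeR's adjusted p = 0.024). Its call was lost without siControl replicate 2, siPSF replicate 1 or siPSF replicate 3 (adjusted p = 0.099, 0.051 and 0.051). ALDH3A2, a fatty aldehyde dehydrogenase, rose from 38.4 ± 0.615 to 47.0 ± 1.28 CPM (SD, n = 3 each; log2 fold change 0.29, edgeR's adjusted p = 0.035), a call that held only without siPSF replicate 3 among the fits that left out a library (adjusted p up to 0.13 in the others, with siControl replicates 1 to 3 and siPSF replicates 1 and 2 left out). It was also lost on the 3 FPKM scales (limma's adjusted p = 0.11, 0.11 and 0.45), with a log2 fold change of 0.09 on rescaled FPKM, where the all-gene median was -0.16. PNMT, which makes adrenaline, had a log2 fold change of 0.10 (95% interval -0.21 to 0.41).

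Among the suppliers of the granule, 1 of 5 genes was called lower and 0 higher, with a median of -0.23. ATP7A, the copper pump that serves copper enzymes such as DBH, fell from 55.4, 50.5 and 59.1 CPM to 44.8, 44.2 and 43.2 CPM (log2 fold change -0.32, edgeR's adjusted p = 0.030), and lost its call without siControl replicate 1, siControl replicate 3, siPSF replicate 1 or siPSF replicate 2 (adjusted p = 0.073, 0.076, 0.084 and 0.071). CYB561, the granule cytochrome that returns electrons to ascorbate for DBH, was at 470, 655 and 616 CPM in siControl and at 485, 531 and 444 CPM in siPSF (log2 fold change -0.25, 95% interval -0.52 to 0.01, edgeR's adjusted p = 0.18). Its siControl replicate 1 was low, as that of DBH was. None of the 3 other amine carriers and none of the 4 carriers of tyrosine and L-DOPA tested was called by edgeR, and SLC29A4 and SLC7A5, the most abundant of each, had log2 fold changes of -0.05 and -0.26.

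The cells were checked against the transcription factors of noradrenergic neurons, which were abundant in both groups. HAND2 was at 1113 to 1292 CPM and PHOX2A at 267 to 357 CPM over the 6 libraries, and the summed level of the 9 factors tested was 3969 to 4211 CPM in siControl and 3830 to 4275 CPM in siPSF. Of these 9, 1 was called lower and 1 higher, with a median log2 fold change of -0.00. TFAP2B, the AP-2 factor of the sympathetic lineage, fell from 604 ± 64.8 to 403 ± 10.5 CPM (SD, n = 3 each; log2 fold change -0.58, edgeR's adjusted p = 0.0016) and was called in all 13 other fits. GATA3 rose from 400.3 ± 12.1 to 493 ± 34.8 CPM (SD, n = 3 each; log2 fold change 0.30, edgeR's adjusted p = 0.032), and lost the call whichever library was left out (adjusted p = 0.060 to 0.099) and on all 3 FPKM scales. PHOX2A, HAND1, HAND2, GATA2 and ISL1 were not called, with log2 fold changes from -0.02 to 0.10. Of the midbrain dopaminergic factors only LMX1B and EN2 were tested, and their sum stayed under 1 CPM in every library.

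Of 12 transcription factors, listed for binding CRE and AP-1 elements except EGR1, a zinc finger protein of another family, 1 was called lower and 0 higher by edgeR, with a median of 0.01. JUN, an AP-1 subunit, fell from 86.3 ± 17.8 to 62.8 ± 2.95 CPM (SD, n = 3 each; log2 fold change -0.46, edgeR's adjusted p = 0.028). Its siControl replicate 1 was high at 107 CPM, and without that library the log2 fold change was -0.28 and the call was lost (adjusted p = 0.087), as it was without siPSF replicate 1 (adjusted p = 0.059).

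**Figure D5:**
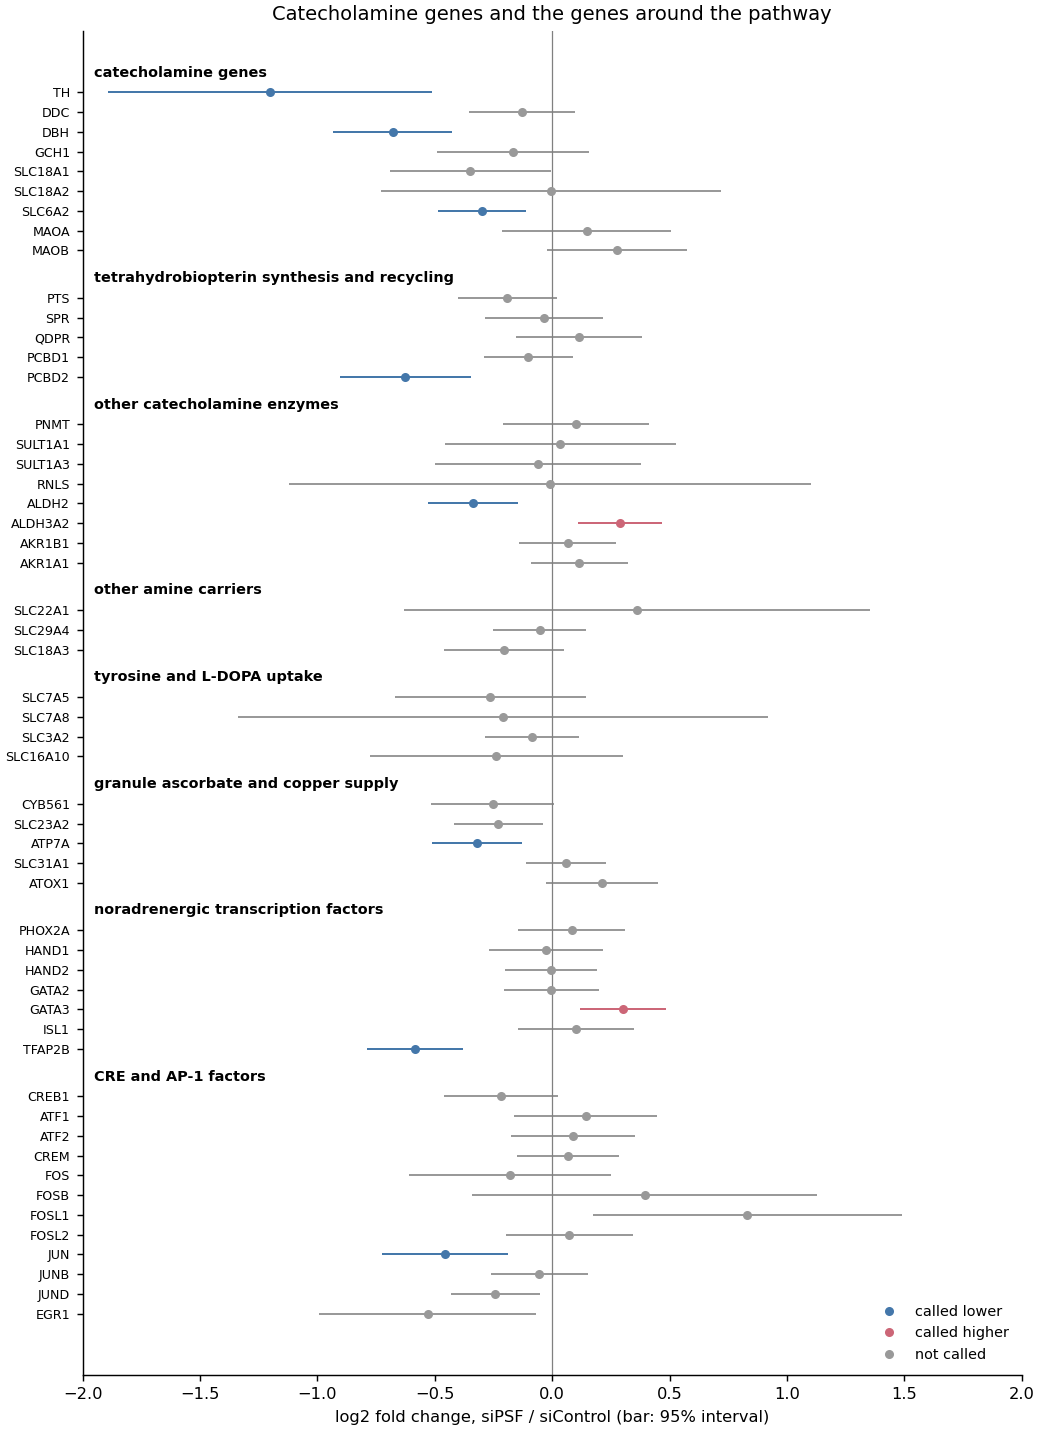
The log2 fold change (siPSF over siControl) with its 95% interval for the 9 catecholamine genes and for genes tested in 7 lists around the pathway, without a few that are not reported, coloured by edgeR's call. Blue points were called lower, red points higher and grey points were not called, and the lists outside the 9 genes hold few coloured points (PCBD2, ALDH2, ATP7A, TFAP2B and JUN lower, ALDH3A2 and GATA3 higher).

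The genes whose 6 values were nearest to those of TH were looked for among 12654 protein-coding genes that averaged 1 CPM or more, by the Euclidean distance of log2 CPM relative to the siControl mean. SLC37A2, PITPNM3 and ZHX2 were the nearest, with distances of 0.40, 0.41 and 0.46 log2 units over the 6 libraries. Their log2 fold changes were -1.30, -1.25 and -1.13 against -1.20 for TH, a likeness that the choice of these genes fixes, and the TH values rest on 17 to 112 reads per library.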

How the data were processed

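RNA-seq of SH-SY5Y cells was analysed, with 3 siControl and 3 siPSF libraries. The authors deposited, for each RefSeq gene and library, raw read counts and FPKM (named RPKM in the methods). According to the methods, poly(A) libraries were read as 50 bp pairs, rRNA reads were removed with Bowtie 2, and the rest were mapped to hg38 with TopHat, whereas the submitters' processing notes name Trimmomatic, HISAT2 2.1.0 and StringTie 2.1.3b with GRCh38. The deposited counts are 1 or more in every row. Counts were filtered (filterByExpr, 19694 genes), normalized by TMM and tested with edgeR 4.0.16 (quasi-likelihood, no block, Benjamini-Hochberg over all genes, called under 0.05) in R 4.3.3. The common coefficient of biological variation was 12.6%. Intervals are 95% intervals from the fit.

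Alternatives were DESeq2 1.42.0 (size factors, Wald test), no filter, each library left out, a replicate block, and limma 3.58.1 on log2(FPKM + 0.5), log2(FPKM + 0.1) and rescaled FPKM, for genes with a mean of at least 0.5, which leaves out TH and SLC18A2. Members, lists and motifs were chosen with earlier results of these data known. Named were all members, SFPQ, called genes of the lists, the most abundant gene of a list without calls, and the 3 genes nearest to TH; other uncalled genes were named after their values were seen. Gene positions, lengths and promoters came from RefSeq (GRCh38.p14), which matched 97.8% of gene IDs. Of the listed genes, 21 were not analysed here, and GCHFR did not pass the filter. A few tested genes of these lists are counted but not reported here by name.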

Additional observations from a re-analysis of the deposited data

How the results depend on the processing

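The call of DBH, and its direction, held in all 13 alternatives. With each library left out in turn, edgeR called from 1500 genes (without siControl replicate 2; 1754 without siControl replicate 3) to 3140 genes, and from 1 catecholamine gene lower (without siControl replicate 2 or 3) to 4, and 0 higher in each. The log2 fold change of SLC18A2 ran from -0.44 to 0.31 over these fits (0.31 without siPSF replicate 2, 0.10 without siControl replicate 3 and 0.02 without siPSF replicate 1), and that of MAOA from -0.055 (without siPSF replicate 3) to 0.29; MAOA was at -0.052 on rescaled FPKM. Neither was called in any fit. The replicate block gave 3029 called genes and 3 catecholamine genes lower, and changed no member's call. Deviations of same-numbered libraries correlated over genes at -0.02, 0.20 and 0.09, and not every library correlated best with its own number, so the numbers were not taken to pair the samples. Depth limits TH and SLC18A2 most, with under 130 counts per library.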

Other observations

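Markers of other transmitter and cell types were read in the same libraries. Of the cholinergic markers, SLC18A3, the vesicular acetylcholine transporter, was at 12.3 to 17.1 CPM (log2 fold change -0.21, edgeR's adjusted p = 0.27), ACHE at 10.2 to 15.5 CPM and CHAT, the enzyme that makes acetylcholine, at 0.152 to 0.407 CPM. None of the 3 was called. Of the serotonergic markers, FEV, a transcription factor of serotonin neurons, was at 121 to 167 CPM (log2 fold change 0.20, edgeR's adjusted p = 0.18). TPH1 and SLC6A4 stayed under 1 CPM in every library, with log2 fold changes of -0.70 and -0.54 and no overlap between the groups. Such a separation downwards was shown by 17.8% of all genes tested. SLC6A4 rested on 15, 20 and 17 reads in siControl and 10, 10 and 10 in siPSF. TPH1 had 102, 104 and 118 reads in siControl and 74, 54 and 43 in siPSF. None of the 3 serotonergic markers was called, and their median was -0.54. The mesenchymal-type neuroblastoma markers had 1 of 7 genes called lower and 0 higher by edgeR, against 8.27% and 6.65% of all genes tested. That gene was FN1, fibronectin, which fell from 78.7 ± 2.16 to 52.0 ± 3.69 CPM (SD, n = 3 each; log2 fold change -0.60, edgeR's adjusted p = 8.5e-04). The median over the 7 markers was 0.19, with VIM, SNAI2, YAP1 and CD44 at 0.19, 0.39, 0.35 and 0.52, none of them called, and WWTR1 and TWIST1 at -0.30 and -0.10. Their summed level, most of it TWIST1, FN1 and VIM, was 345 to 363 CPM in siControl and 316 to 341 CPM in siPSF. Of the Schwann and glial markers, S100B was at 0.278 to 0.692 CPM over the 6 libraries and was not called (log2 fold change 0.61, edgeR's adjusted p = 0.25). The part of these cell type markers in the changes of the catecholamine genes was not tested.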
